A study of Mus musculus with 388 samples.

Results

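The genes described here are 10 members of the bone morphogenetic protein (BMP) pathway, found by their symbols among the 25000 genes of a merged single-cell table. They are the ligand genes Bmp4 and Bmp6, the secreted antagonist genes Grem1 and Chrdl1, the pseudoreceptor gene Bambi, the receptor genes Bmpr1a and Bmpr2, and the target genes Id1, Id2 and Id3. The table held 388 single bone marrow stromal cells of C57BL/6 mice, aged 2 months, of the genotype KitMerCreMer; R26tdTomato. All mice had received tamoxifen at E12.5 and E14.5 of embryonic life, and all cells were sorted as PDGFRα+ and negative for CD45, Ter119 and CD31, so that both groups share alleles, drug, age and gate and differ, by the labels, in Tomato alone. MerCreMer is a Cre recombinase that works only with tamoxifen and is driven here by Kit, so that Tomato+ cells descend from cells that recombined in that window, while a Tomato- cell can also descend from a cell that escaped recombination. The sources used here give no number of mice, and no animal is named for a cell.

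After 2 cells with few genes were left out, 386 cells remained. Sample titles place them in 2 orders and 8 numbered sets: sets P1 (94 cells), P2 (5 cells) and P3 (38 cells) of Tomato+ and N2 (60 cells) of Tomato- cells in order 1, and P1 and P2 (24 cells each) of Tomato+ and N1 (71 cells) and N2 (70 cells) of Tomato- cells in order 2. Total counts per cell ranged from 18031 to 3833473, with a median of 679645. All 21 listed markers of Lepr+ stroma were past the floor on low values described below, and counts of Pdgfra, whose product was used in the sort, were found in 96.9% of cells. This share asks for 1 count only, and low counts of BMP genes also lay in cells marked for other types, as described below. Markers of other cell types moved with the groups: the summed blood markers stood at 15307 CPM (counts per 1000000 counts of the summed cells) in Tomato- cells of order 2 and at 47.6 to 88.6 CPM in the other 3 sums, and the summed pericyte markers at 1312 CPM in Tomato- against 296 CPM in Tomato+ cells of order 1. By markers kept after low counts had been removed, 12 Tomato- cells and 1 Tomato+ cell were marked for blood, 19 and 8 for pericytes, and 1 and 4 for endothelium. The cells of each group count as 1 sample, so the group comparisons carry no test and no p-value, and all intervals cover counting error only.

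BMP ligands are secreted proteins that bind paired type I and type II serine/threonine kinase receptors, whose kinase phosphorylates Smad1, Smad5 and Smad9, which enter the nucleus with Smad4. Id genes, which encode helix-loop-helix proteins that hold other transcription factors off DNA, are direct targets of these Smads. Secreted antagonists trap the ligands outside the cell, and in marrow the pathway is known for its part in bone formation by stromal progenitors; GREMLIN1 has been used to mark skeletal stem cells in mouse bone.

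Promoters are shown for Id2, the Id gene that was higher in Tomato+ cells in both orders, and for Id3, the Id gene with the highest level. The 300 bases run from 250 bases before to 50 bases after the start site, from RefSeq on build GRCm38.p6, 5′ to 3′ on the gene's strand. The RefSeq start site lies 1048 bases downstream of the 5′ end of Id2 and 325 bases downstream of that of Id3 in the GENCODE annotation, from which the gene positions given further on are taken, so both windows lie within those gene spans. Capitals mark a GC-rich Smad1/5 element (GGCGCC) in Id2, at −231 from the start, and the core of the cAMP response element (TGACG, here on the opposite strand) in Id3, at −170. The Id2 window lies at chr12:25096043-25096342 on the minus strand and the Id3 window at chr4:136143572-136143871 on the plus strand.
Id2: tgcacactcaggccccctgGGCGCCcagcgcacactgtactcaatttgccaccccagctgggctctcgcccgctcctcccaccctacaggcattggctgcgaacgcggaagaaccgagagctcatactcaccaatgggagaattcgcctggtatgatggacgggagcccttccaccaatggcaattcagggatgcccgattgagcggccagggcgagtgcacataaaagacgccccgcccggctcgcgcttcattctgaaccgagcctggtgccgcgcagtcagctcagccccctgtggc
Id3: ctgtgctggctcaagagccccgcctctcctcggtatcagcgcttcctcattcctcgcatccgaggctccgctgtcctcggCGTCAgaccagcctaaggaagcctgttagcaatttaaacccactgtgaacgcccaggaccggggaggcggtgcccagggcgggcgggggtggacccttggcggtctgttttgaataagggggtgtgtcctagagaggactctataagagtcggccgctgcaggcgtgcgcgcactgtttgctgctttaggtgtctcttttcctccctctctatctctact
Promoters were found for 7 of the 10 genes, namely Bmp4, Bmp6, Grem1, Bmpr1a, Bmpr2, Id2 and Id3, and both strands were searched for 4 motifs. GGCGCC was found in 4 of the 7, those of Bmpr1a, Bmpr2, Grem1 and Id2, and in 11.9% of all 32851 promoter windows of the same length. TGACG was found in Id3 alone and in 20.8% of all windows. The palindromic Smad box GTCTAGAC and the TATA box TATAAA were in none of the 7 and in 0.213% and 13.6% of all windows. A match describes letters in this window and not a bound site.

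Between the groups, 2 of the 10 genes, Bambi and Id2, were higher in Tomato+ cells in both orders, and 0 were lower in both. The size rule behind these counts asked for a ratio of more than 1.5-fold and of the same sign in each order, on the scale of CPM + 1 of the summed counts, among genes whose mean reached 20 CPM and which 20% or more of the cells held; all 10 genes were past this floor. Of the 6177 genes past the floor, 2.70% were higher in both orders and 4.16% lower in both, as a background for these counts. The median log2 ratio of the 10 genes was 0.37 in order 1 and 0.27 in order 2, against 0.01 and −0.01 for all 6177 genes.

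The orders differed in how much they separated the groups. In order 1 alone, Grem1, Bambi, Bmpr1a and Id2 were over 1.5-fold higher in Tomato+ cells and Bmp4 and Id1 over 1.5-fold lower, which is 4 and 2 of 10 beside backgrounds of 26% and 24.4%. In order 2, Bambi, Id1 and Id2 were higher and 0 lower, beside backgrounds of 8.73% and 12.9%. Only Bambi and Id2 are in both higher lists, and Id1 stood on opposite sides in the orders.

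**Figure D1:**
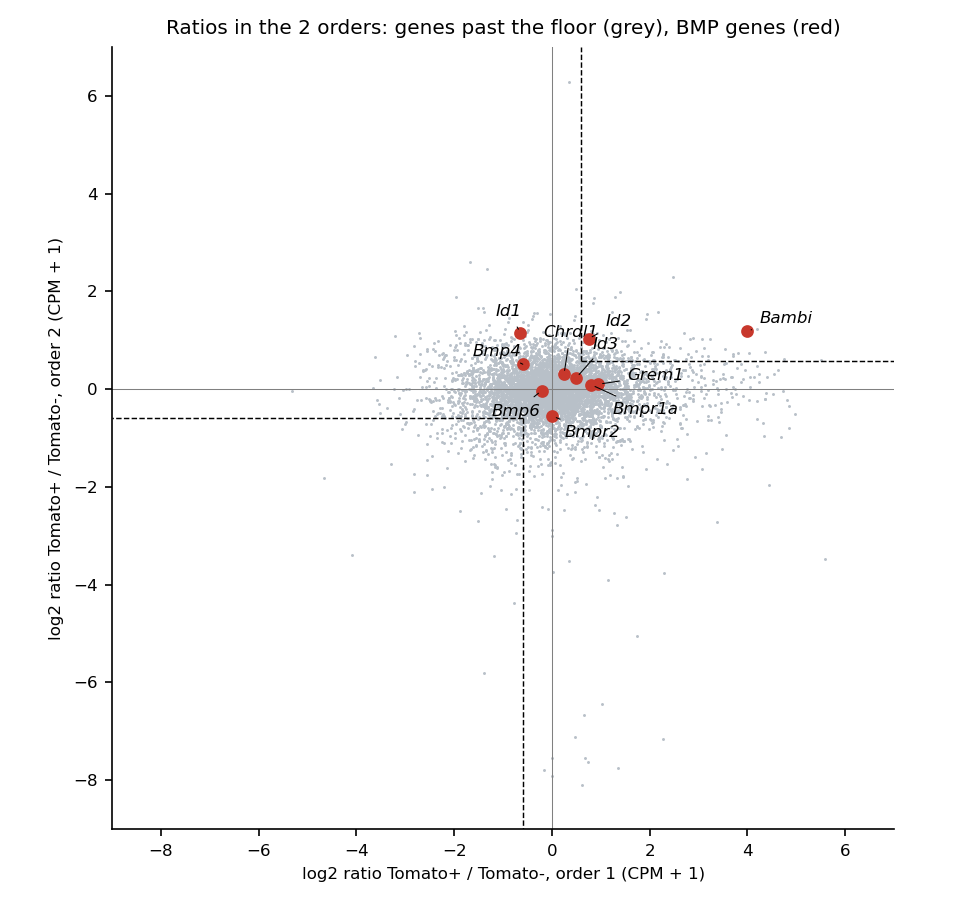
Log2 ratio of Tomato+ over Tomato- (CPM + 1 of summed counts) in order 1 on the x axis and order 2 on the y axis, for 6177 genes past the floor (grey) and the 10 BMP genes (red); dashed lines bound the areas past 1.5-fold in both orders. Bambi (3.99 and 1.19) and Id2 (0.75 and 1.03) lie in the upper right area, and Id1 (−0.65 and 1.15) lies to the upper left of the centre.

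Per length, the 10 genes spanned a wide range of levels. On the scale of CPM per kb of exon sequence (union of annotated exons, mean of the 4 sums of group and order), Id3 stood at 422, Chrdl1 at 319, Grem1 at 138.1, Bmp4 at 103.3, Id2 at 45.7, Bmp6 at 41.6, Id1 at 29.03, Bambi at 12.8, Bmpr1a at 7.80 and Bmpr2 at 6.58. In this mean the antagonists lay above the ligands and the receptors lowest, but in Tomato- cells of order 1 Bmp4 at 159.3 lay above Grem1 at 103.95, and in both sums of order 1 Bambi, at 8.20 and 0.330, lay below Bmpr1a and Bmpr2. The sources used here do not say whether the libraries cover whole transcripts, and other genes change places too: Id2 stood at 35.97 and Bmp6 at 52.7 CPM per kb in Tomato+ cells of order 1, and at 84.4 and 26.1 in those of order 2.

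**Figure D2:**
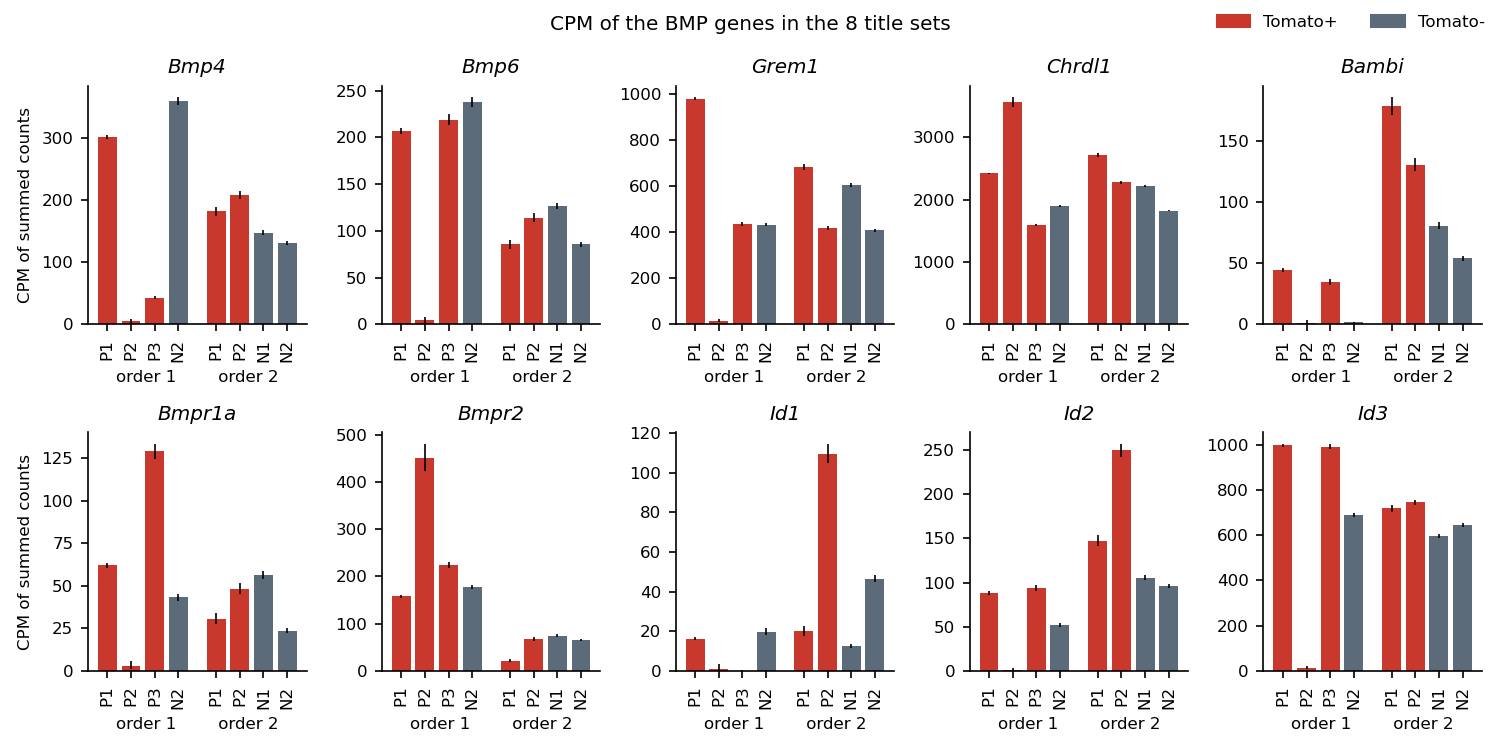
CPM of the summed counts of each of the 10 BMP genes in the 8 title sets, Tomato+ in red and Tomato- in grey, with exact 95% Poisson intervals as lines; order 1 is on the left of each panel. Set P2 of order 1, with 5 cells, stands apart for most genes, and Bambi is higher in both Tomato+ sets of order 2 (178.7 and 130.99 CPM) than in both Tomato- sets (80.97 and 54.02 CPM).

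Bmp4 encodes a ligand of bone and cartilage formation and lies on chromosome 14 at 46383520 to 46390669, minus strand (GRCm38). Its summed level was 236 CPM in Tomato+ and 358 CPM in Tomato- cells of order 1 (log2 ratio −0.60), while order 2 had 196.7 CPM in Tomato+ and 137.8 CPM in Tomato- cells (0.51). The direction differed between the orders, so neither group was higher throughout. Within order 1 the Tomato+ sets themselves lay at 301 CPM in P1, 42.5 CPM in P3 and 5.05 CPM in P2, and without P1 the mean log2 ratio was −1.32 in place of −0.04. The spread among sets of one group was wider than the gap between the groups.

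Single cells spanned a wide range of Bmp4 levels. In order 1 the median Tomato+ cell held 4.79 CPM and the highest 4556 CPM, and 7 cells held 50% of the group's counts. The Tomato- median of order 1 was 17.5 CPM with a highest cell of 2449 CPM. In order 2 the medians were 121.4 CPM in Tomato+ and 52.95 CPM in Tomato- cells, and 27 and 56 cells were over 100 CPM. Exons of Bmp4 overlap those of Gm15217 on the opposite strand, and the sources used here do not say whether counting used strand.

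Bmp6, a ligand that in liver endothelium drives hepcidin and so iron balance, lies on chromosome 13 at 38345107 to 38500302, plus strand. Its sums were 205 CPM in Tomato+ and 238 CPM in Tomato- cells of order 1, and in order 2 they were 101.8 and 103.9 CPM (log2 ratios −0.21 and −0.03). Both ratios were under 1.5-fold, while both groups were lower in order 2 than in order 1, by log2 differences of −1.01 and −1.19. The median cell did not follow in Tomato- cells, at 19.5 CPM in order 1 and 72.1 CPM in order 2, and 7 of 60 Tomato- cells held 50% of the counts of order 1; the Tomato+ medians were 63.4 and 57.4 CPM. Apart from P2 of order 1 at 4.13 CPM, the sets ran from 207 to 238 CPM in order 1 and from 85.6 to 126.9 CPM in order 2, with no overlap between the orders. The highest single cell, at 9774 CPM, was a Tomato- cell of order 1 in which Lepr did not remain after the removal of low counts. Bmp6 shares exonic bases with Txndc5 on the opposite strand, and its values were not whole numbers in 32 cells. Bmp4, whose exons also overlap another gene of the table, had 0 such cells. Whether counts were divided between overlapping genes was not tested.

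Other ligand genes were few. Of 15 listed ligand genes 9 had a count in any cell, 5 were past the floor and 0 passed the size rule. Among all genes past the floor, 2.70% passed it as higher and 4.16% as lower. The median log2 ratio of the 5 ligand genes was −0.21 in order 1 and 0.10 in order 2. Bmp5, a ligand close to Bmp6 in sequence, stood at 175.3 CPM in Tomato+ and 210.4 CPM in Tomato- cells of order 1, beside 181.4 and 169.03 CPM in those of order 2. Bmp2, a strong inducer of bone, had Tomato+ sums of 44.4 and 261 CPM in the orders and Tomato- sums of 35.4 and 156.7 CPM, a ratio past 1.5-fold in order 2 only. For 6 ligand genes (Bmp7, Bmp10, Bmp15, Gdf2, Gdf5 and Gdf7) 0 counts were found, for which the exact 95% Poisson interval reaches 0.0331 CPM in the deepest sum and 0.119 CPM in the shallowest.

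Grem1 encodes gremlin 1, a secreted antagonist of BMP2, BMP4 and BMP7, on chromosome 2 at 113746164 to 113758646, minus strand. It stood at 835 CPM in Tomato+ and 431 CPM in Tomato- cells of order 1, whereas those of order 2 held 530.4 and 494 CPM (log2 ratios 0.95 and 0.10). The difference was past 1.5-fold in order 1 only, and there it lay in the set P1 at 977 CPM, since P3 at 436 CPM was close to N2 at 431 CPM and P2 was at 15.6 CPM. Without P1 the mean log2 ratio was 0.00 in place of 0.53. In order 2 the sets of the groups overlapped, with P1 at 682 CPM, N1 at 604 CPM, P2 at 416 CPM and N2 at 407 CPM. The median cell held 356 CPM in Tomato+ and 61.1 CPM in Tomato- cells of order 1, and 298 and 212 CPM in those of order 2.

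Chrdl1 encodes chordin-like 1, an antagonist that binds BMP4, and lies on chromosome X at 143285674 to 143394262, minus strand. It had the highest CPM of the 10 genes and a count in every kept cell. The Tomato+ sums were 2255 CPM in order 1 and 2464.5 CPM in order 2, and the Tomato- sums 1903 and 2001 CPM (log2 ratios 0.24 and 0.30). Both ratios were above 0 and under 1.5-fold, and the mean was above 0 in all 22 alternative settings, from 0.09 to 0.34. The Tomato- cells of order 1 were the most uneven: their median cell held 698 CPM, against 1979 CPM in Tomato+ cells of order 1 and 2345 and 2079 CPM in the groups of order 2. Among cells in which Lepr, the leptin receptor gene that marks these stromal cells, remained after the removal of low counts, the medians of order 1 were 2242 CPM in Tomato+ and 1604 CPM in Tomato- cells. Lepr remained in 86.1% of Tomato+ but 65% of Tomato- cells of order 1, whose median totals were 774174 and 500701.5 counts. The removal works on counts and not on CPM, so this share can also follow depth. The part of this share in the Chrdl1 difference was not tested beyond these values.

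Of 16 listed antagonists and modulators, 14 had a count, 6 were past the floor and 0 passed the size rule in either direction. Among all genes past the floor, 2.70% passed it as higher and 4.16% as lower. The median log2 ratio of the 6 antagonist and modulator genes was 0.69 in order 1 and 0.11 in order 2. Fstl1, a secreted follistatin-like glycoprotein, had Tomato+ sums of 2650.2 and 2217 CPM in the orders and Tomato- sums of 2838 and 2032 CPM. Fst, which encodes the activin-binding follistatin, had Tomato+ sums of 313 and 253 CPM and Tomato- sums of 139.9 and 318 CPM, so its order 1 difference had the opposite sign in order 2. Nog, the gene of the antagonist noggin, stayed at or under 1.59 CPM in all 4 sums.

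Bambi encodes a transmembrane pseudoreceptor that resembles type I receptors, lacks a kinase domain and damps BMP and TGF-beta signalling; the gene lies on chromosome 18 at 3507923 to 3516404, plus strand. It was higher in Tomato+ cells in both orders. The sums of order 1 were 41.6 CPM in Tomato+ and 1.67 CPM in Tomato- cells, and those of order 2 were 151.5 and 65.98 CPM. These gave log2 ratios of 3.99 and 1.19 and a mean of 2.59. The Tomato- sum of order 1 rests on 55 counts, with an exact 95% Poisson interval of 1.26 to 2.18 CPM.

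By set, Bambi stood in order 1 at 44.7 CPM in P1, 34.9 CPM in P3, 0.918 CPM in P2 and 1.67 CPM in N2. The 5 cells of P2 held 2 counts, so this Tomato+ set lay with the Tomato- set, and in P3 a single cell held 99.1% of the counts. In order 2 both Tomato+ sets lay above both Tomato- sets. The highest cell held 55.2% of the counts in P1 and 53.4% in P2 of order 2, against 24.8% in N1 and 8.20% in N2. Without the highest cell of each group and order the log2 ratios were 4.06 and 0.94. Among Tomato+ cells of order 2 this left out the highest cell of P1 but kept that of P2. The ratio without both cells was not computed. In Tomato+ cells of order 2, 2 cells held 50% of the counts, and the highest, at 2635 CPM, was pericyte-marked. Pericyte-marked cells of order 2 stood at 207 CPM beside 81.1 CPM in unmarked cells, whereas in order 1 the values were 0.305 and 35.2 CPM. Without cells marked for other types the log2 ratios were 4.06 and 0.66, both still past 1.5-fold. Over the 7 library codes of order 1 that held both groups (83 Tomato+ and 60 Tomato- cells), Bambi was higher in Tomato+ cells in 7 of 7, with log2 ratios from 3.03 to 5.10. These codes are not replicates: their Tomato- cells are all of set N2 and share its 55 counts, and F0000182 held 2 of them. Grem1 and Id2 were each higher in 6 codes and lower in 1.

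The share of cells with Bambi depended on the count asked for. At least 1 count was found in 34.3% (95% Clopper-Pearson interval 26.4 to 42.9) of Tomato+ and 50% (36.8 to 63.2) of Tomato- cells of order 1, which goes against the summed level. At least 5 counts were found in 16.8% and 1.67%. In order 2 the shares with at least 5 counts were 43.8% in Tomato+ and 40.4% in Tomato- cells, so that there the sums differed while the shares lay close. Cells over 100 CPM numbered 17 Tomato+ and 0 of 60 Tomato- in order 1, and 15 of 48 Tomato+ and 35 Tomato- in order 2; the median cell held under 3 CPM in all 4.

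Bambi was also higher in order 2 than in order 1 in both groups, by log2 differences of 1.84 in Tomato+ and 4.65 in Tomato- cells. Since most Tomato- cells belong to order 2 (71 + 70 beside 60) and most Tomato+ cells to order 1 (94 + 5 + 38 beside 24 + 24), summing all cells over both orders gave a log2 ratio of 0.41 for Bambi and 0.37 for Id2, both under 1.5-fold. In the same pooled sums Grem1 at 0.68, Bmpr1a at 0.78 and Bmpr2 at 0.61 were past 1.5-fold. The call for Bambi and Id2 therefore rests on ratios taken within each order.

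Bmpr1a, the type I receptor gene for BMP2 and BMP4, lies on chromosome 14 at 34410734 to 34503341, minus strand. It stood at 76.1 CPM in Tomato+ and 43.2 CPM in Tomato- cells of order 1, whereas those of order 2 held 40.7 and 38.2 CPM (log2 ratios 0.80 and 0.09). Only the ratio of order 1 was past 1.5-fold, and its Tomato+ sets lay at 62.03 CPM in P1, 129.1 CPM in P3 and 2.75 CPM in P2. In order 2 the sets overlapped, from 23.7 CPM in N2 and 30.7 CPM in P1 to 48.2 CPM in P2 and 56.4 CPM in N1. Within the sets numbered 1 of order 2 the log2 ratio was −0.86 and within those numbered 2 it was 0.998. Most cells of order 2 held no count of Bmpr1a, namely 32 of 48 Tomato+ and 78 Tomato- cells.

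Bmpr2, the type II receptor gene known for its mutations in pulmonary arterial hypertension, lies on chromosome 1 at 59763400 to 59879014, plus strand. Its Tomato+ sums were 178.8 and 47.4 CPM in the orders, and its Tomato- sums 177.6 and 69.9 CPM (log2 ratios 0.01 and −0.55). The sums of order 1 lay level, but the median cell held 28.7 CPM in Tomato+ and 8.12 CPM in Tomato- cells, at least 5 counts were found in 58.4% and 35%, and 1 Tomato- cell in which Lepr did not remain held 23.5% of the counts. Among cells in which Lepr remained, the sums of order 1 were 178.2 and 124.2 CPM. The lower Tomato+ value of order 2 came with 21.4 CPM in P1 and 66.9 CPM in P2 beside 74.6 and 66.1 CPM in N1 and N2. Without P1 of order 2 the mean log2 ratio was −0.03 in place of −0.27. Both groups were over 1.5-fold lower in order 2 than in order 1, by −1.89 and −1.33. In P2 of order 1, at 452 CPM, a single cell held 99.2% of the counts.

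Among 11 receptor and co-receptor genes of the table, 8 were past the floor. Of these, Bambi and Eng were higher in Tomato+ cells in both orders and 0 were lower, beside 2.70% and 4.16% of all genes past the floor. Eng, which encodes endoglin, a co-receptor of the TGF-beta family abundant in endothelium, had Tomato+ sums of 133.1 and 176.3 CPM in the orders and Tomato- sums of 52.4 and 112.6 CPM (log2 ratios 1.33 and 0.64). Its exons overlap Fpgs on the opposite strand. The summed endothelial markers stood at 321 and 297 CPM in Tomato+ and at 37.8 and 26.99 CPM in Tomato- cells, and the part of such cells in the Eng difference was not tested. Acvr2a, a type II receptor gene shared with activins, was at 84.1 and 239 CPM in Tomato+ and 90.6 and 159.7 CPM in Tomato- cells. Of 8 Smad and Smurf genes 5 were past the floor and 0 passed, beside the same 2.70% and 4.16% of all genes. Smad7, an inhibitory Smad, was at log2 ratios of 2.01 and −0.02, and Smurf2, a ubiquitin ligase gene of the pathway, at 1.64 and −0.30.

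The 3 Id genes behaved differently from one another. Id3 was high in most cells, Id2 was present in a part of them, and Id1 was rare in order 1 and more frequent in order 2. Of 9 listed target genes 6 were past the floor, Id2 was higher in both orders and 0 were lower in both. Among all genes past the floor, 2.70% were higher and 4.16% lower by this rule. Id4 lay at log2 ratios of 0.27 and −0.20, and Dlx5, a homeobox gene of bone, at −0.08 and −0.01.

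Id1 lies on chromosome 2 at 152736251 to 152737410, plus strand. Its sums were 12.3 CPM in Tomato+ and 19.8 CPM in Tomato- cells of order 1 (log2 ratio −0.65), and 71.1 and 31.4 CPM in those of order 2 (1.15). The order 1 values rest on single cells: 1 of 60 Tomato- cells held 650 of the 652 counts (99.7%) and 1 Tomato+ cell 56.7%. Without the highest cell of each group and order the mean log2 ratio was 1.80 in place of 0.25, and without P1 of order 1 it was −1.49. The former includes an order 1 ratio of 2.59, which rests on the few Tomato- counts left and on the pseudocount. In order 2 the sets numbered 2 were higher in both groups, with P2 at 109.6 CPM and N2 at 46.6 CPM against P1 at 19.9 CPM and N1 at 12.4 CPM.

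Counts of Id1 were found in 13.1% of Tomato+ and 5% of Tomato- cells of order 1, and in 58.3% and 38.3% of order 2. After each cell had been thinned to 150000 counts, which left out 17 cells, the shares were 5.26%, 3.77%, 43.8% and 30.4% in the same sequence. At this equal total the shares of order 2 were still the higher ones, while genes per cell, which were not matched, had Tomato+ medians of 4367 and 4457.5 in the orders and Tomato- medians of 3861 and 4586. The log2 difference of order 2 over order 1 was 2.44 in Tomato+ and 0.64 in Tomato- cells. The orders hold different sets and cells, and what else differed between them cannot be told apart from the order.

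Id2 lies on chromosome 12 at 25093799 to 25097140, minus strand, and the window at its RefSeq start site is printed above. It was higher in Tomato+ cells in both orders, with Tomato+ sums of 87.7 and 206 CPM and Tomato- sums of 51.8 and 100.3 CPM (log2 ratios 0.75 and 1.03, mean 0.89). The sets of order 1 lay at 88.1 CPM in P1, 93.6 CPM in P3 and 51.8 CPM in N2, with P2 at 0.918 CPM from 2 counts. In order 2 both Tomato+ sets, at 147.5 and 249.7 CPM, lay above both Tomato- sets, at 105.5 and 96.1 CPM. A single cell of P2, at 4114 CPM, held 45.2% of the Tomato+ counts of order 2. Without the highest cell of each group and order the mean was 0.69, and without P2 of order 2 it was 0.65; in neither case was Id2 past 1.5-fold in both orders.

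Id2 was also found in cells marked for other types. In order 2 Id2 stood at 147.9 CPM in the 12 blood-marked cells and 176.3 CPM in the 18 pericyte-marked cells, beside 120.9 CPM in unmarked cells. In order 1 the 9 pericyte-marked cells were at 64.1 CPM, beside 67.1 CPM in unmarked cells, and the 1 blood-marked cell was at 766 CPM. After the removal of low counts Id2 remained in 75% of the blood-marked and 40.1% of the unmarked cells of order 2. Among cells in which Lepr remained, the Tomato+ sums were 80.1 and 209.7 CPM in the orders and the Tomato- sums 61.96 and 96.8 CPM, so that the ratio of order 1 was no longer past 1.5-fold. Over the library codes of order 1 shared by both groups, the log2 ratio of Id2 was 0.86. In order 2 it was 0.48 in the sets numbered 1 and 1.37 in those numbered 2, and no label says that such sets form a batch. For Bambi the same 3 values were 4.16, 1.13 and 1.26.

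Id3 lies on chromosome 4 at 136143497 to 136145755, plus strand, and encodes the most abundant Id transcript of these cells. Its sums were 977 and 734 CPM in Tomato+ cells of the orders and 691 and 624 CPM in Tomato- cells (log2 ratios 0.50 and 0.23). Both ratios were above 0 and under 1.5-fold. P1 and P3 of order 1, at 998 and 992 CPM, lay above N2 at 691 CPM, and both Tomato+ sets of order 2, at 719 and 745 CPM, lay above N1 at 597 and N2 at 645 CPM; P2 of order 1, at 14.7 CPM, was the exception. The median cell held 459 CPM in Tomato+ and 158.4 CPM in Tomato- cells of order 1, and 529 and 381 CPM in order 2. Among cells in which Lepr remained, the mean log2 ratio fell to 0.12, with sums of 901 against 836 CPM in order 1.

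**Figure D3:**
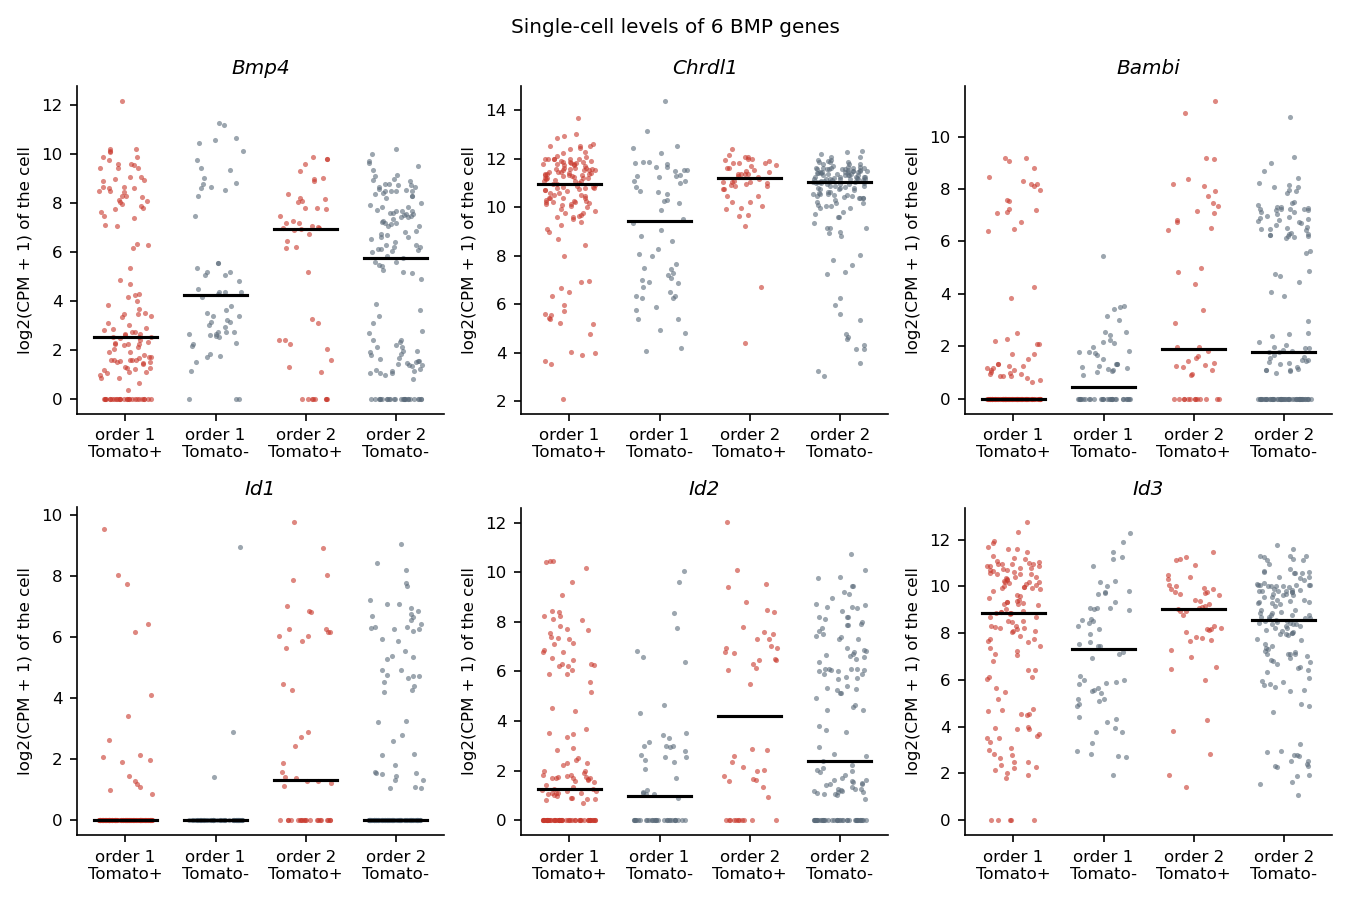
Levels of 6 BMP genes in single cells, as log2(CPM + 1), by order and group; each point is 1 cell and each bar the median. Chrdl1 has at least 1 count in every cell, Bmp4, Bambi and Id2 run from 0 to high levels, and Id1 is at 0 in 57 of 60 Tomato- cells of order 1.

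Low counts of these genes were widespread and were therefore also read after a filter within pools. Where a count was under 1% of the highest count of that gene in the same pool (the library code in order 1, the set number in order 2), it was set to 0; a count that survived is said to remain. In the 12 blood-marked cells of order 2, with a median total of 853826 counts, Chrdl1 had at least 1 count in 100% and remained in 16.7%, Grem1 had one in 91.7% and remained in 8.33%, and Bmp4 had one in 66.7% and remained in 8.33%. In the 303 unmarked cells in which Lepr remained, with a median total of 704723 counts, Chrdl1 remained in 94.4%, Grem1 in 77.2%, Id3 in 83.5%, Bmp6 in 63.7%, Bmp4 in 55.1%, Bmpr2 in 48.5%, Id2 in 36.3%, Bmpr1a in 28.7%, Bambi in 27.7% and Id1 in 17.8%. Id3 stood at 4183 CPM in the 3 endothelial-marked cells of order 1, beside 831 CPM in unmarked cells, but at 1.93 CPM in the 2 of order 2, beside 706 CPM.

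The 331 cells in which Lepr remained carried a median of 5 of the 10 genes in order 1 and 6 in order 2. At least 1 of the 2 ligand genes remained in 77.7% and 85.6% of these cells, and both antagonist genes in 69.4% and 83.9%. Both receptor genes remained in only 17.2% and 16.1%. At least 1 Id gene remained in 80.9% and 94.8%, and all 3 in 2.55% and 13.8%. In order 1 Grem1 remained in 76.8% of the cells in which Chrdl1 did and in 20% of those in which it did not, which were 15.

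Correlations across cells were weak. Over 45 pairs of the 10 genes, the median Spearman rho was 0.10 over the cells of order 1 (94 + 5 + 38 + 60) and 0.04 over those of order 2 (24 + 24 + 71 + 70), and 2 pairs exceeded 0.2 in both orders. These were Grem1 with Chrdl1, at 0.33 and 0.32, and Bmp4 with Chrdl1, at 0.20 and 0.35. Among cells in which Lepr remained the former stood at 0.19 and 0.17 and the latter at 0.18 and 0.27. Bmp4 and Id1, a ligand and a target gene, were at −0.01 and 0.02, and Bmp6 and Id1 at 0.06 and −0.10. Id2 and Id3 stood at 0.24 and 0.10. Cells of an order share libraries and sequencing, so these values are descriptions.

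**Figure D4:**
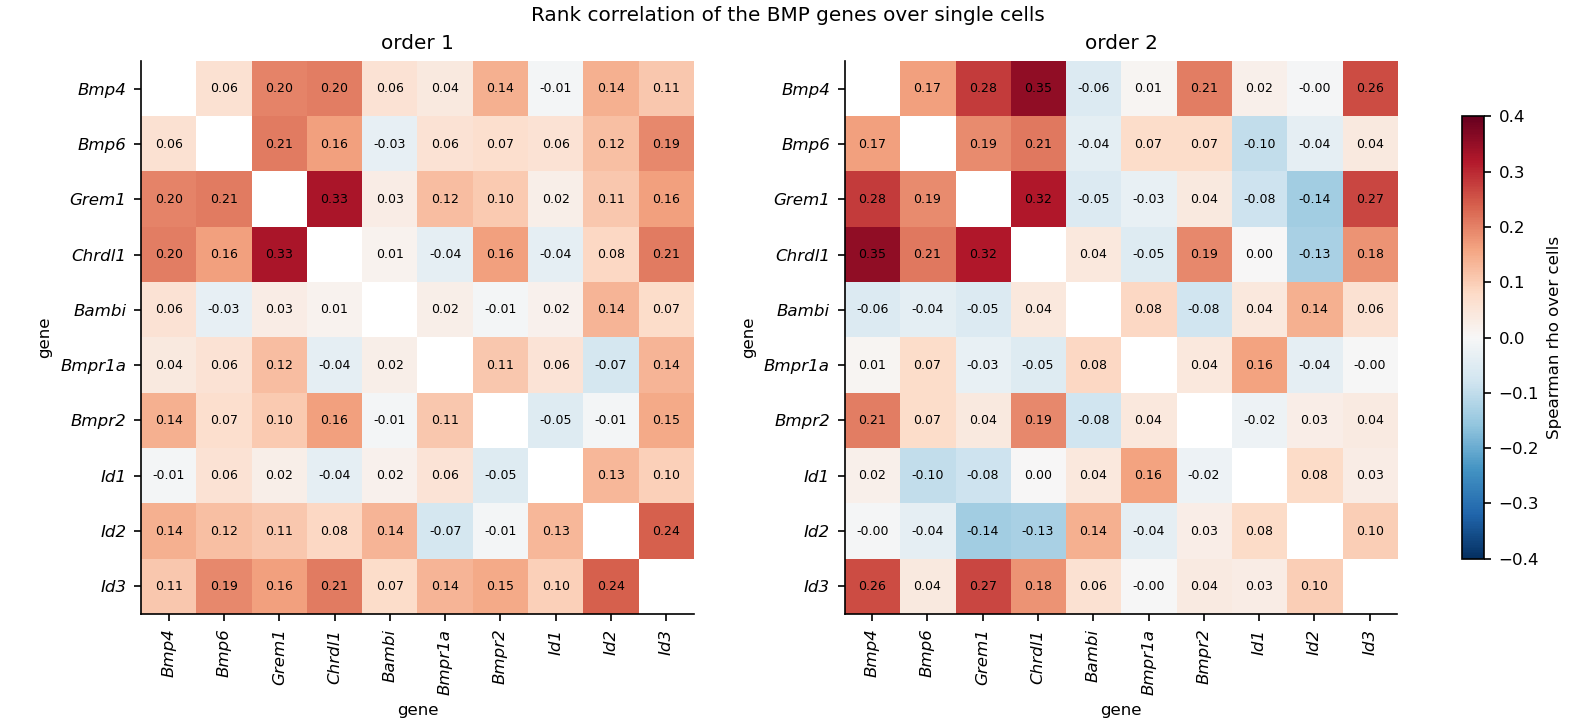
Spearman rho of log2(CPM + 1) between each pair of the 10 BMP genes over the kept cells of order 1 and of order 2, with the colour scale from −0.4 to 0.4. Grem1 and Chrdl1 stand at 0.33 and 0.32. In order 2 the block of Bmp4, Grem1 and Chrdl1 holds the highest values. In order 1 Id2 with Id3, at 0.24, lies above Bmp4 with Chrdl1 and Bmp4 with Grem1, both at 0.20. Most other pairs lie near 0.

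Each gene with a count in at least 50% of cells of both orders was set beside the 2765 other genes of that kind, and the 5 with the highest smaller-of-both rho were taken. For Chrdl1 these were Gas6 (0.48 and 0.52), Fbln5, Cxcl12 (0.53 and 0.44), Il34 and Cdh11, among them stromal marker genes. For Grem1 they were Gas6 (0.42 and 0.35), Tgfbr3, Apbb2, Spon1 and Sdc1. For Bmp4 they were Tnc (0.34 and 0.34), Slc26a7, Plxdc2, Sema5a and Susd2, and for Bmp6 Plpp3 (0.35 and 0.37), Antxr1, Nptn, App and Gpm6b. For Bmpr2 they were Clmp (0.22 and 0.23), Grb10, Plxnb2, Bmper and Ube2h, and for Id2 Ppig (0.16 and 0.17), Atp6v1e1, Rab5if, Bbx and Runx2. Bambi, Bmpr1a and Id1 were in too few cells. The median over all candidate genes lay between −0.03 and 0.03 for each gene compared.

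Id3 stood beside immediate early genes, which many stimuli induce within minutes. Its 5 nearest genes were Socs3 (rho 0.38 and 0.43), Egr1 (0.39 and 0.37), Junb (0.46 and 0.37), Gadd45b (0.41 and 0.36) and Fos (0.37 and 0.36). With the sum of 12 listed immediate early genes, rho was 0.49 in order 1 and 0.39 in order 2, and 0.46 and 0.29 among cells in which Lepr remained. For Id1 the same values over all kept cells were 0.14 and 0.20, and for Id2 0.13 and 0.06. Id3 also moved with genes per cell in order 1 (rho 0.49) and not in order 2 (−0.04). The summed immediate early genes stood at 24116 and 33472 CPM in Tomato+ and at 25967 and 25801 CPM in Tomato- cells. Of the 12 genes 0 passed the size rule, beside 2.70% higher and 4.16% lower among all genes past the floor.

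**Figure D5:**
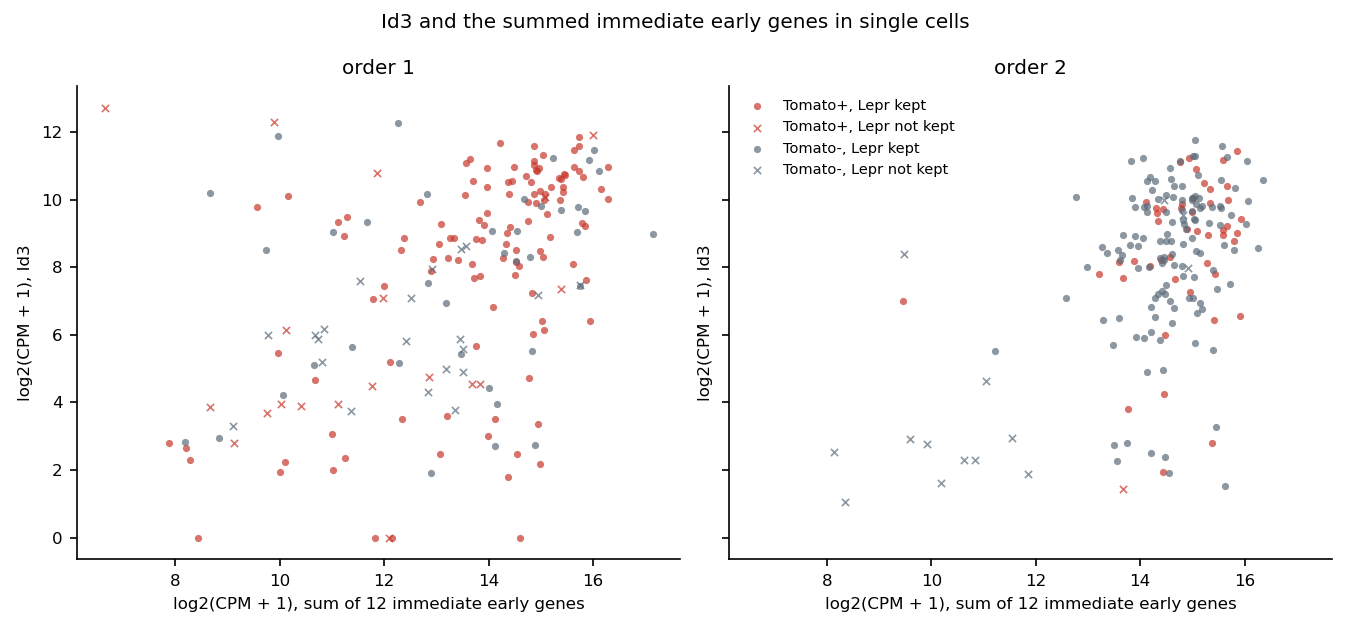
Id3 against the sum of 12 immediate early genes in single cells, both as log2(CPM + 1), for order 1 and order 2; circles are cells in which Lepr remained and crosses the others, Tomato+ in red and Tomato- in grey. Cells with more of the early genes tend to hold more Id3, with rho of 0.49 in order 1 and 0.39 in order 2.

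The genes also differed in their rho with the sum of 21 Lepr+ stroma markers. The genes with the highest CPM weigh most in such a sum. Cxcl12 alone made up 42135 of 89754 CPM in Tomato+ and 22490 of 60907 CPM in Tomato- cells of order 1. In order 2 it made up 53092 of 109742 CPM in Tomato+ and 48167 of 97010 CPM in Tomato- cells. Over all kept cells of order 1 and order 2 it was 0.53 and 0.48 for Chrdl1, 0.45 and 0.33 for Grem1, 0.24 and 0.24 for Bmp6, 0.18 and 0.21 for Bmpr2, 0.17 and 0.34 for Bmp4 and 0.25 and 0.16 for Id3. Among cells in which Lepr remained these values were 0.42 and 0.37 for Chrdl1, 0.32 and 0.19 for Grem1, 0.16 and 0.13 for Bmp6, 0.18 and 0.22 for Bmpr2, 0.14 and 0.28 for Bmp4 and 0.14 and 0.00 for Id3. Over all kept cells it was 0.14 and 0.07 for Id1, 0.00 and −0.07 for Bambi, 0.00 and −0.02 for Bmpr1a and 0.16 and −0.12 for Id2. With the sum of osteogenic markers Grem1 stood at −0.23 in order 1 and 0.16 in order 2, and at −0.26 and 0.00 among cells in which Lepr remained. The highest genes of that sum were Ibsp and Spp1, with means of 12378 and 3850 CPM. Of the 7 osteogenic genes past the floor 0 passed the size rule between the groups, beside 2.70% higher and 4.16% lower among all genes.

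Compared between the orders, 3 of the 10 genes (Bambi, Id1 and Id2) were over 1.5-fold higher in order 2 in both groups, beside 11.1% of all genes past the floor, and 2 (Bmp6 and Bmpr2) were over 1.5-fold lower, beside 15.3%. Id2 was higher by 1.22 in Tomato+ and 0.94 in Tomato- cells on the log2 scale. Chrdl1 differed least, by 0.13 and 0.07. Order, library preparation and the animals used cannot be told apart in these samples.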

How the data were processed

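Single PDGFRα+ marrow stromal cells of 2 groups, 388 in all, were measured by single-cell RNA sequencing after whole-transcript amplification. The deposited table holds expected counts per gene and cell; RSEM is named in part of its column names, per the file headers, 4.91% of values above 0 are not whole, and build GRCm38 with HISAT, StringTie 1.3.3b and HTSeq 0.6.0 appear in the submitters' processing notes. Counts were rounded, and 386 cells of no fewer than 1000 genes and 10000 counts were used. Columns carry a group and set but no single-cell title; 0 columns duplicate another and 0 cells of order 1 share library code and index. Counts were summed per group and order and given as CPM, and ratios use a pseudocount of 1 CPM. Each group is 1 sample, so no test was made; intervals are exact (Poisson, Clopper-Pearson, 95%) and cover counting error. Cells were marked for another type by 3 list markers with at least 5 counts after the pool filter. Its pools in order 2 (same set numbers together) are an assumption, which the batches of order 2 share. The size rule was tested on simulated data. The members and gene lists were chosen with earlier results of these data known. Named were all 10 genes, list members past the size rule, the 2 highest others of each BMP list, and the 5 genes most like each member; others are said to be chosen after their values were seen. Positions and exon lengths came from GENCODE M21, promoters from RefSeq. Alternatives covered scaling, pseudocount, floor, cell filters, sets, batches and pools. Python 3.11.15, NumPy 2.4.6, pandas 2.3.3, SciPy 1.17.1 and matplotlib 3.10.9 were used.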

Additional observations from a re-analysis of the deposited data

Results flagged for a closer look

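Id1 stood out because its log2 ratio of Tomato+ over Tomato- was −0.65 in order 1 and 1.15 in order 2. The difference between the orders was not tested. In order 1 both sums rest largely on 1 cell each (99.7% of the Tomato- and 56.7% of the Tomato+ counts). Over the shared library codes of order 1 the ratio was −0.33. In order 2 it was 0.64 in the sets numbered 1 and 1.22 in those numbered 2, which are batches by assumption only.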

How the results depend on the processing

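The count of 2 genes past the size rule (Bambi and Id2) fell to 1, Bambi, under median-of-ratios size factors. The same was found without cells marked for the endothelial, blood or pericyte lists on counts as deposited. Within batches that held both groups (shared library codes in order 1, set numbers by assumption in order 2) the count was also 1, Bambi. In 2 settings chosen after seeing the data the count was again 1, Bambi. These were cells in which Lepr remained and cells left without those marked after the pool filter. The count was 3 with both orders summed (Grem1, Bmpr1a and Bmpr2, with Bambi at 0.41 and Id2 at 0.37). It was 2 without P2 of order 2 (Bambi higher, Id1 lower) and without the highest cells (Bambi and Id1). The latter setting left few Tomato- counts of Id1 in order 1 and gave the upper end for Id1 in the ranges that follow. Leaving out each set in turn gave 2 to 3 genes. Without N2, the only Tomato- set of order 1, the ratios were those of order 2 alone. That setting therefore asked for 1.5-fold in order 2 only, and it gave the upper end for Bmp4 in the ranges that follow. Over 22 alternatives the mean log2 ratio of Bambi ran from 0.41 to 2.94, that of Id2 from 0.37 to 1.16 and that of Grem1 from 0.00 to 0.71, all above 0, while those of Bmp4 (−1.32 to 0.51) and Id1 (−1.49 to 1.80) changed sign, as did those of Bmp6 (−0.55 to 0.39) and Bmpr2 (−0.89 to 0.61); the causes were not tested beyond each setting's construction. No paired analysis was possible because the numbers in the titles name sets of cells and not pairs of samples; the groups were compared within shared library codes and set numbers as values only. The level of Bambi in Tomato- cells of order 1 rests on 55 of 32880691 counts. Animals were not named, so spread between animals is unknown.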

Other observations

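Several pathway genes under the floor differed widely, and those given here were chosen after their values were seen. Smad9, a BMP Smad, stood at 6.60 against 0.122 CPM in order 1 and at 6.56 against 0.0108 CPM in order 2. Its Tomato+ counts lay in few cells, 15 in order 1 and 3 of 48 in order 2 with at least 1 count, and the highest cell held 35.1% and 55.4% of them. The Tomato- sums rest on 4 counts and 1 count. Smad6, an inhibitory Smad, stood at 6.36 against 0.0912 CPM in order 1 and at 5.53 against 3.40 CPM in order 2, with at least 5 counts in 10 Tomato+ and 0 of 60 Tomato- cells of order 1 and in 5 of 48 Tomato+ and 11 Tomato- cells of order 2. Endothelial-marked cells held 0% of the counts of both genes.

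Nbl1, which encodes the secreted antagonist DAN, had 7 counts (0.225 CPM) in Tomato+ cells of order 2 and 44.1 CPM in Tomato- cells, against 43.5 and 61.04 CPM in order 1, where 1 cell held 59.5% and 88.2% of the counts. In 2 of the 4 sums of group and order, the cell with the most raw Id1 counts was also the cell with the most raw Id3 counts. These were Tomato- of order 1 and Tomato+ of order 2, with cell totals of 1314438 and 696808 counts. The former total was the highest of its group and order. By CPM neither cell was the highest for Id3, at 2827 beside 5002 CPM and at 2321 beside 2797 CPM.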
